A study of Mus musculus with 16 samples.

Results

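The 32 genes described here are transcripts of connective tissue, blood vessel and epithelium, measured in CD8 T cells sorted from mouse tumours. They comprise 22 fibroblast and matrix genes, 4 endothelial genes and 6 epithelial genes, chosen by name, of the 24028 genes in the count table. The tumours were TS/A, a BALB/c mammary adenocarcinoma line injected into the mammary pad of BALB/c mice. The mice were dosed daily from day 7 with entinostat at 20 mg/kg, an inhibitor of class I histone deacetylases, or with vehicle. The 4 groups were entinostat at day 17, vehicle at day 17, entinostat at day 10 and vehicle at day 10 after tumour injection, with 4 RNA-seq libraries each, so that the doses had run for 10 or 3 days. All groups shared the tumour line, the strain and the sort, whose gate took live cells with CD45.2 and CD8 on the surface and without CD4. Nothing in the labels ties a library to an animal of its own, so each p-value reflects only how far these samples scatter, and that scatter may be technical.

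Fibroblasts build the extracellular matrix. They secrete fibrillar collagens, the chaperone Serpinh1 folds the collagen chains, and small proteoglycans such as lumican and decorin space the fibrils. Endothelial cells hold one another through VE-cadherin (Cdh5) and Pecam1, and epithelial cells through E-cadherin (Cdh1), Epcam and keratin filaments anchored at their junctions. None of these cell types carries CD45, so a gate on CD45 and CD8 is meant to leave them out, and their transcripts in a sorted library serve as a measure of RNA from outside the gate. Some of the genes are also used by leukocytes: Pecam1 is a surface molecule of platelets and several white cells, and E-cadherin is made by some dendritic cells. Whether leukocytes made any of the matrix transcripts was not tested. In bulk libraries, fewer cells of a type and less RNA per cell cannot be told apart.

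Total counts ran from 554593, in entinostat day 17 replicate 3, to 6975904. Levels are given as CPM, counts scaled to a common library size after TMM normalization. The gate showed in Cd8a, at 442 ± 109.8, 369.6 ± 30.8, 331 ± 22.3 and 419 ± 14.6 CPM (SD, n = 4) with entinostat at day 17, vehicle at day 17, entinostat at day 10 and vehicle at day 10. Cd4 was at 7.49 ± 1.901, 48.1 ± 5.33, 9.64 ± 3.68 and 31.02 ± 9.04 CPM in the same order of groups. To gauge reads in silent genes, 1410 olfactory and vomeronasal receptor genes served as background, and a member was called above them where its CPM per kilobase of exon passed their 95th percentile in the same library. Per library they summed to 3399 to 6254 CPM with entinostat and 661 to 5102 CPM with vehicle at day 17. At day 10 the range was 590 to 5546 with entinostat and 629 to 2016 with vehicle. The receptor level therefore varied widely between libraries, and the ranges overlapped between treatments and between days. Whether it moved with treatment or day was not tested. Calls that a fit with it as a covariate gained or lost are given beside each comparison.

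3 libraries stood apart in these genes. Replicate 4 of entinostat at day 10 was at least 5-fold above the highest of the other 3 libraries of its group in 11 members, 10 of them matrix genes. Replicate 4 of vehicle at day 10 was so in 11 members, again 10 of them matrix genes. The matrix genes common to both were Col1a1, Col5a1, Col6a1, Col6a2, Sparc, Fn1, Thbs1, Mmp2 and Timp1, and Krt18 was the epithelial gene in both. Vehicle day 17 replicate 4 was at least 5-fold above the rest of its group in 7 members, Col1a2, Col3a1, Col5a2, Col6a3, Lum, Dcn and Postn. Over all genes tested, 0.993%, 1.17% and 0.729% were 5-fold above in these 3 libraries, in the order given. No other library was 5-fold above the rest of its group in any member. Results that rest on these libraries are given with and without them.

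Matrix transcripts were the class that differed most in absolute level between libraries. The summed CPM of the 22 matrix members was 686, 506, 1390.2 and 2294 with entinostat at day 17 and 699, 2483, 2619 and 3217 with vehicle at day 17, for replicates 1 to 4. At day 10 it was 181, 128, 164 and 1044 with entinostat and 73.6, 44.8, 51.3 and 866 with vehicle. Every day 17 library thus lay above replicates 1 to 3 of both day 10 groups, while the replicate 4 libraries of day 10 lay within the day 17 range. Means were 1219 ± 812 with entinostat and 2254 ± 1085 with vehicle at day 17, and 379 ± 443 with entinostat and 259 ± 405 with vehicle at day 10 (SD, n = 4 each). Without their replicate 4 libraries the day 10 means were 158 with entinostat and 56.6 with vehicle. Of the day 17 means, Fn1 alone made up 609 CPM with entinostat and 926 CPM with vehicle. No p is given for these sums, because the members were chosen with results of these data known.

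The endothelial and epithelial classes did not follow this pattern. Summed CPM of the 4 endothelial members was 125 ± 12.3 with entinostat and 207 ± 27.6 with vehicle at day 17, and 143 ± 18.9 with entinostat and 217 ± 37.9 with vehicle at day 10. For the 6 epithelial members the values were 121 ± 46.4 with entinostat and 256 ± 65.5 with vehicle at day 17, and 132 ± 16.96 with entinostat and 213 ± 49.8 with vehicle at day 10. Both sums were lower with entinostat at each day by their means. At day 17 the 4 entinostat libraries, at 108 to 137, lay below the 4 vehicle libraries, at 177 to 244, for the endothelial sum, but the epithelial ranges of 86.2 to 189.6 and 174 to 334 overlapped. At day 10 the endothelial ranges, 122 to 167 with entinostat and 164 to 247 with vehicle, overlapped. The epithelial sum there was 113 to 153.7 with entinostat, below the 156.8 to 255.9 with vehicle. Pecam1 and Kdr made up most of the endothelial sum and Cdh1 most of the epithelial sum, so these sums describe those genes rather than vessels or epithelium as a whole.

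**Figure D1:**
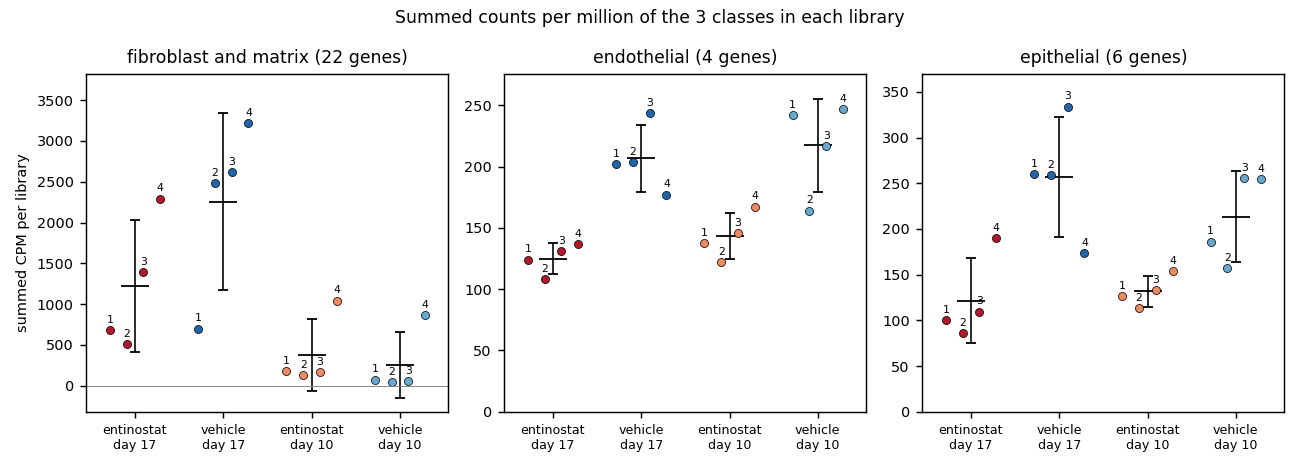
Summed CPM of the 22 fibroblast and matrix, 4 endothelial and 6 epithelial genes in each of the 16 libraries, with the replicate number above each point and the group mean and SD as bar and whiskers. In the matrix panel both day 10 replicate 4 libraries, at 1044 and 866 CPM, stand with the day 17 libraries, and replicates 1 to 3 of day 10 lie between 44.8 and 181 CPM.

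Of the 32 members, 29 passed the filter on low counts and were tested. Krt8 and Krt14, keratins of luminal and basal epithelium, and Cldn4, a tight junction claudin, did not. Krt8 reached at most 4.07 CPM and Krt14 at most 7.46 CPM in any library. Cldn4 had no count in 10 of 16 libraries and at most 0.536 CPM in the others. Markers from lists of further genes, named here after their values were seen, were mixed. Krt5 of basal epithelium averaged at most 0.478 CPM and the endothelial claudin Cldn5 at most 0.475 CPM in any group. In contrast, the endothelial genes Vwf and Emcn averaged 44.2 and 32.2 CPM, and the epithelial genes St14, Trp63 and Esrp1 66.4, 33.1 and 20.5 CPM, with entinostat at day 17. The 20 further endothelial genes summed to 129 to 209 CPM with entinostat and 51.1 to 126 CPM with vehicle at day 17, and to 77.9 to 138 CPM with entinostat and 44.8 to 82.1 CPM with vehicle at day 10. The 27 further epithelial genes summed to 366 to 426 CPM with entinostat and 251 to 356 CPM with vehicle at day 17, and to 296 to 323 CPM with entinostat and 232 to 279 CPM with vehicle at day 10. Some defining genes of each class were thus at or near 0 while others had higher raw levels. These further genes were not set against the receptor percentile. By mean, receptor reads were 4707, 3606, 3231 and 1582 CPM with entinostat at day 17, entinostat at day 10, vehicle at day 17 and vehicle at day 10. In that order the endothelial sums averaged 177, 107, 94.9 and 57.0 CPM and the epithelial sums 399, 308, 305 and 252 CPM. The part of silent-gene reads in these levels was not tested.

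Against the receptor genes, Pecam1 and Cdh1 were above the 95th percentile in 16 of 16 libraries, Kdr in 14, Dcn in 13 and Serpinh1 in 11. Fn1, Col1a1, Sparc and Epcam were above it in 10 libraries each. Tek, the angiopoietin receptor of endothelium, was above it in none, at 0.903 to 9.87 CPM, so its level could not be set apart from reads in silent genes. Matrix members above the percentile numbered 9, 6, 7 and 17 of 22 in replicates 1 to 4 of entinostat at day 17 and 16, 14, 15 and 17 with vehicle at day 17. At day 10 they numbered 3, 1, 3 and 16 with entinostat and 3, 4, 3 and 12 with vehicle. The replicate 4 libraries of day 10 therefore stood out by this count as well. The percentile is that of each library, and the receptor sum was among the lowest in day 10 entinostat replicate 4 and day 17 vehicle replicate 1, at 590 and 661 CPM. Its part in these counts was not tested.

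**Figure D2:**
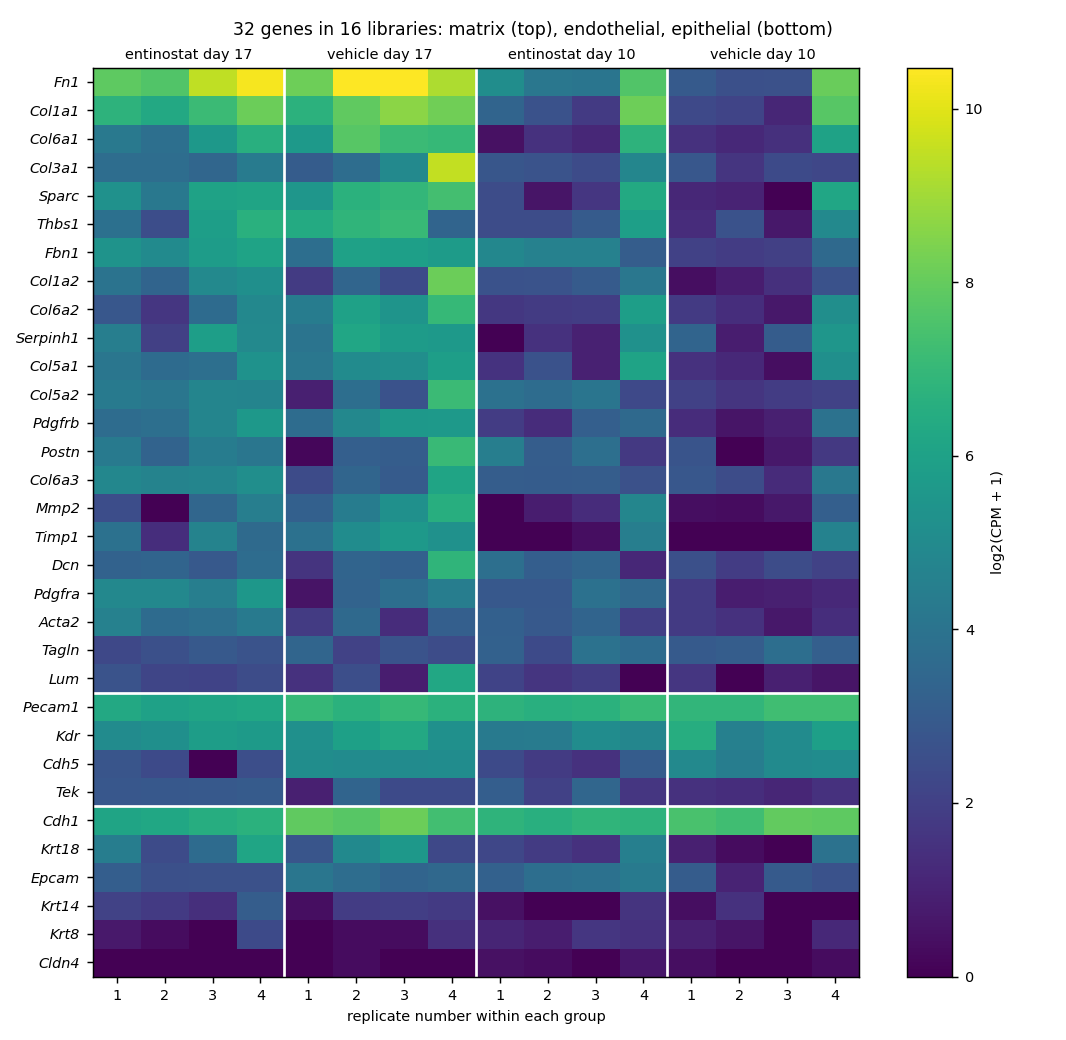
log2(CPM + 1) of the 32 genes (rows, ordered within class by mean level) in the 16 libraries (columns, by group and replicate number). The replicate 4 columns of day 10 share the bright upper rows of the day 17 columns, vehicle day 17 replicate 4 is brightest in Col3a1, at 720 CPM, and the rows of Pecam1 and Cdh1 are bright in every column.

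The first set of matrix genes was high in both replicate 4 libraries of day 10, and its leading genes, Fn1 and Col1a1, were high in all day 17 libraries too. Fn1, which encodes fibronectin, a glycoprotein that links cells to the matrix, was at 231, 199, 717 and 1288 CPM with entinostat at day 17 and 284, 1411, 1421 and 587 CPM with vehicle at day 17. At day 10 it was at 34.2, 16.99, 15.7 and 196 CPM with entinostat and 6.72, 4.92, 4.98 and 268 CPM with vehicle. All 8 day 17 libraries were above replicates 1 to 3 of both day 10 groups, and in neither treatment did day 17 and day 10 overlap. The fitted log2 change of day 17 against day 10 was 3.68 ± 1.10 with vehicle (SE, edgeR quasi-likelihood test, adjusted p = 0.0559) and 3.14 ± 1.08 with entinostat (adjusted p = 0.0618), and neither passed 0.05. Without replicate 4 of both day 10 groups, a fit chosen after seeing the data, the log2 changes were 7.35 ± 0.84 with vehicle and 4.77 ± 0.71 with entinostat. Those libraries were left out because they were high in these genes at day 10, so a larger change over time follows from the choice, and values without them are given here and below as a description.

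Col1a1 encodes the alpha 1 chain of type I collagen, the main fibril of connective tissue. With entinostat at day 17 it was at 108, 79.2, 141 and 279 CPM, and with vehicle at day 17 at 106, 239.8, 399.9 and 294 CPM. With entinostat at day 10 it was at 9.296, 5.15, 2.47 and 288 CPM, and with vehicle at day 10 at 3.97, 3.37, 1.17 and 212 CPM. Replicates 1 to 3 of both day 10 groups were at most 9.30 CPM. Both replicate 4 libraries of day 10 lay among the 8 day 17 libraries, which ran from 79.2 to 399.9 CPM, so day 17 and day 10 overlapped in each treatment. The log2 change of day 17 against day 10 was 2.22 ± 1.19 with vehicle (SE, edgeR adjusted p = 0.246) and 0.93 ± 1.17 with entinostat (edgeR adjusted p = 0.671). Without replicate 4 of both day 10 groups it was 6.46 ± 0.61 with vehicle and 4.78 ± 0.56 with entinostat.

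Krt18, a simple-epithelium keratin, was also high in both replicate 4 libraries of day 10. It was at 20.9, 4.31, 11.6 and 71.2 CPM with entinostat at day 17 and 5.87, 30.7, 47.1 and 3.77 CPM with vehicle at day 17. At day 10 the values were 3.72, 2.57, 1.85 and 21.98 CPM with entinostat and 0.917, 0.259, 0 and 14.6 CPM with vehicle. Its usual filament partner Krt8 was not 5-fold above the rest of its group in either replicate 4 library: summed over the 4 libraries of a group it had 15, 7, 23 and 10 counts with entinostat at day 17, vehicle at day 17, entinostat at day 10 and vehicle at day 10. The Krt18 change of day 17 against day 10 was 2.44 ± 1.18 on the log2 scale with vehicle (SE, edgeR adjusted p = 0.202) and 1.83 ± 1.14 with entinostat (edgeR adjusted p = 0.327). Without replicate 4 of both day 10 groups the changes were 5.67 ± 1.22 with vehicle and 3.34 ± 0.97 with entinostat.

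The other members of this set are Col5a1, which nucleates collagen fibrils, the collagen VI chains Col6a1 and Col6a2, the counter-adhesive proteins Sparc and Thbs1, the gelatinase Mmp2 and its inhibitor Timp1. Serpinh1 met the 5-fold rule in the entinostat library alone, at 38.8 CPM against at most 1.802 CPM in the rest of its group. In vehicle replicate 4 of day 10 it was at 44.7 CPM, against at most 9.47 CPM in the rest of that group. Over all 16 libraries Col5a1 ran from 0.293 to 66.3 CPM, Col6a1 from 0.372 to 215 CPM and Col6a2 from 0.586 to 129 CPM. Thbs1 ran from 0.586 to 133 CPM, Mmp2 from 0 to 93.6 CPM and Serpinh1 from 0 to 72 CPM. Sparc ran from 17.2 to 68.9 CPM with entinostat and between 44.5 and 160.1 CPM with vehicle at day 17. In replicates 1 to 3 of day 10 it did not exceed 4.46 CPM with entinostat or 1.22 CPM with vehicle, and in replicate 4 it reached 80.6 and 72.2 CPM. Timp1 had no count in 5 of the 6 day 10 libraries other than replicate 4, where 3 counts would correspond to between 0.772 and 1.12 CPM, and it was at 21.4 CPM in replicate 4 with entinostat and 24.3 CPM in replicate 4 with vehicle. Such floors allow for counting error alone, because the libraries carry no molecular identifiers. Of the 24028 genes in the table, 180 had such a jump in the entinostat replicate 4 library of day 10 and 205 in the vehicle one. The 94 genes shared between them are 52.2% of the entinostat list and 45.9% of the vehicle list, and 10 of the 94 were members. Among the shared genes outside the 32, chosen after their values were seen, were Fbln2 (a fibulin of basement membranes, 141 CPM with entinostat and 150.3 CPM with vehicle), Msln (mesothelin, 53.3 and 133 CPM) and the chemokine gene Cxcl1 (86.5 and 111 CPM). Their highest value in the other day 10 libraries was 2.35 CPM, in Msln, and at day 17 they averaged 91.1, 77.8 and 63.0 CPM with entinostat and 140.0, 106.2 and 60.3 CPM with vehicle, in the order Fbln2, Msln and Cxcl1.

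A second set of matrix genes was high in vehicle day 17 replicate 4. Col3a1, the chain of type III collagen, was at 12.2, 12.4, 9.95 and 19.7 CPM with entinostat at day 17 and 7.22, 12.4, 29.9 and 720.5 CPM with vehicle at day 17. At day 10 it was at 5.95, 5.41, 4.32 and 27.2 CPM with entinostat and 6.11, 2.07, 4.104 and 3.66 CPM with vehicle. The value of 720 CPM in that replicate compares with at most 29.9 CPM in the 15 other libraries. Col1a2, the alpha 2 chain that pairs with Col1a1 in type I collagen, was at 14.8, 9.42, 29.9 and 36.6 CPM with entinostat and 2.56, 9.53, 4.12 and 278 CPM with vehicle at day 17. At day 10 Col1a2 was at 5.21, 5.41, 7.09 and 16.8 CPM with entinostat and 0.306, 0.778, 1.76 and 5.23 CPM with vehicle. In both genes the same library is far above all others, and in Col1a2 the entinostat libraries of day 17 are above vehicle replicates 1 and 3 of that day.

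Col5a2, the alpha 2 chain of type V collagen, was at 18.6, 16.2, 26.5 and 25.1 CPM with entinostat and 0.903, 12.97, 5.15 and 139 CPM with vehicle at day 17. At day 10 the Col5a2 values were 14.1, 11.8, 16.04 and 3.93 CPM with entinostat and 3.06, 2.07, 2.64 and 3.14 CPM with vehicle. Lumican (Lum), a keratan sulfate proteoglycan of collagen fibrils, was at 5.47, 3.5, 3.32 and 4.41 CPM with entinostat and 1.81, 4.76, 0.772 and 76.8 CPM with vehicle at day 17, and at 3.35, 2.06, 2.78 and 0 CPM with entinostat and 2.14, 0, 0.8795 and 0.523 CPM with vehicle at day 10. Outside vehicle day 17 replicate 4, Col5a2 reached at most 26.5 CPM and Lum at most 5.47 CPM, and both were above the receptor percentile in that library alone. Postn (periostin), Dcn (decorin) and Col6a3 followed, at 137, 114 and 68.9 CPM in vehicle day 17 replicate 4, against at most 21.6, 13.0 and 35.3 CPM in the 15 other libraries. In all, 221 of the 24028 genes were at least 5-fold higher in that library than in the rest of its group. None of them was among the 94 shared by the day 10 replicate 4 libraries. Leading genes of that shared set, such as Fn1 and Col1a1, were high in all day 17 libraries. This left little room for a 5-fold excess in a single one, so the lack of overlap cannot show that the sets differ. Genes of the 221 outside the 32, chosen after their values were seen, include the complement genes C3 (118 CPM, at most 12.2 CPM elsewhere) and Serping1 (76.5 CPM, at most 4.04 CPM elsewhere) and the proteoglycan gene Bgn (53.2 CPM, at most 3.32 CPM elsewhere).

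The chains of one collagen therefore differed in ratio between libraries. Per kilobase of exon, the ratio of Col1a1 to Col1a2 was 6.59, 7.58, 4.26 and 6.86 in replicates 1 to 4 of entinostat at day 17. With vehicle at day 17 it was 37.3, 22.7, 87.6 and 0.954. At day 10 it was 1.61, 0.859, 0.314 and 15.5 with entinostat and 11.7, 3.91, 0.601 and 36.5 with vehicle, where replicates 1 to 3 rest on 1 to 25 counts of either chain. Within vehicle at day 17, replicate 4 was thus far below the other 3 libraries in this ratio, and the 4 entinostat libraries lay between. Entinostat replicates 2 and 3 and vehicle replicate 3 of day 10 were also below 1. The ratio of Col1a1 to Col3a1 was 8.30, 5.997, 13.3 and 13.3 with entinostat and 13.8, 18.1, 12.6 and 0.383 with vehicle at day 17. The day 17 ratios to Col3a1 rest on between 6 and 2101 counts of Col3a1 and between 85 and 1554 counts of Col1a1. Among the day 17 libraries vehicle replicate 4 alone was below 1, and its summed matrix level, the highest of all at 3217 CPM, included 720 CPM of Col3a1.

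**Figure D3:**
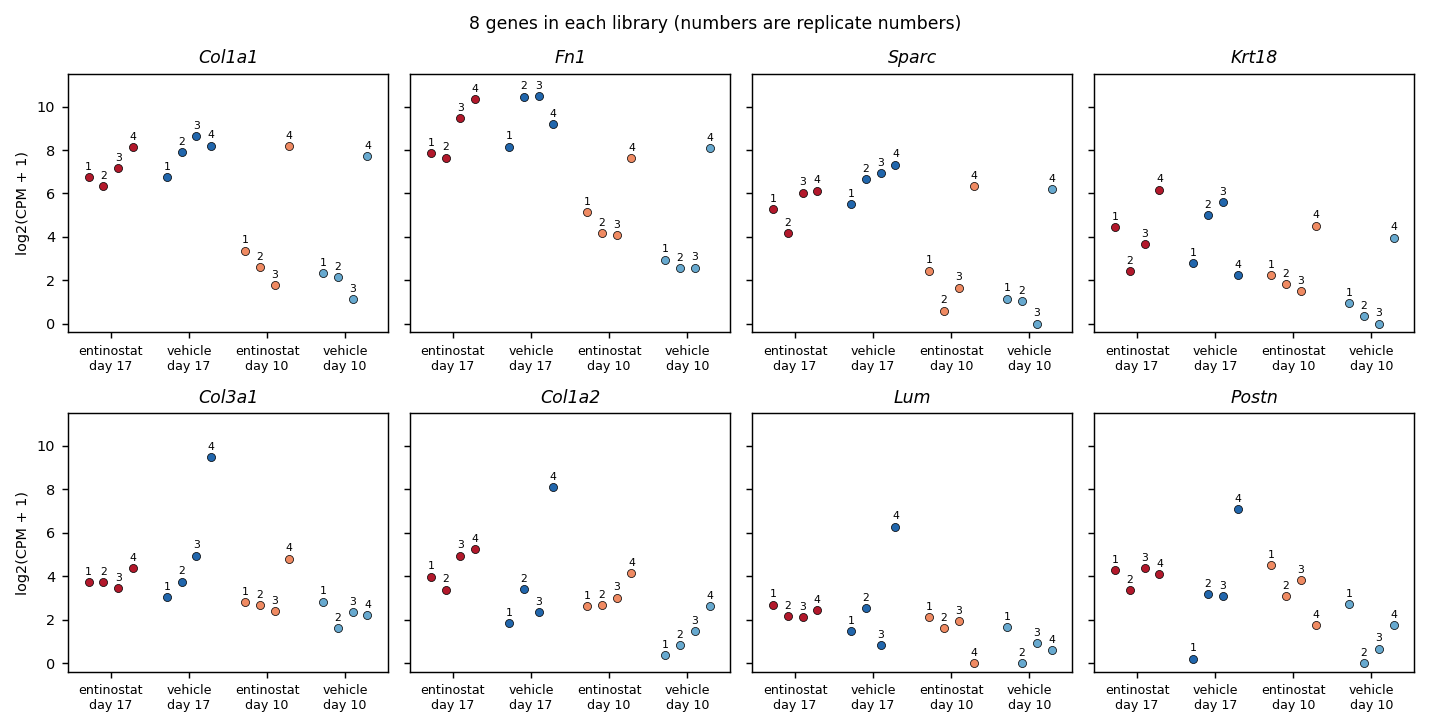
log2(CPM + 1) per library of 4 genes that are high in both day 10 replicate 4 libraries (top row) and 4 genes that are high in vehicle day 17 replicate 4 (bottom row), with replicate numbers above the points. In the top row replicate 4 of each day 10 group lies far above replicates 1 to 3, and in the bottom row vehicle day 17 replicate 4 lies above all other libraries.

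To show the sequence next to these genes, 4 promoters are given: Sparc, of the set high in both day 10 replicate 4 libraries, Serpinh1, which met the 5-fold rule in the entinostat one, and Col3a1 and Col1a2, of the set high in vehicle day 17 replicate 4. Each is the 200 bases before the annotated start, 5′ to 3′ on the gene's strand, from RefSeq on GRCm38.p6, in a promoter table that matched 20 of the 32 members. Capitals mark matches, on either strand, to the TATA sequence TATAAA, the CCAAT box, the GC box GGGCGG and the AP-1 site TGACTCA.
Sparc (chr11:55420081-55420280, minus strand): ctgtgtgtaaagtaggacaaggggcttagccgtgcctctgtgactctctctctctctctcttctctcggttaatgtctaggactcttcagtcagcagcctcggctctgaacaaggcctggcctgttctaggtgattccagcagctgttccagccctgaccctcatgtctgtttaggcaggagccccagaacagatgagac
Serpinh1 (chr7:99353240-99353439, minus strand): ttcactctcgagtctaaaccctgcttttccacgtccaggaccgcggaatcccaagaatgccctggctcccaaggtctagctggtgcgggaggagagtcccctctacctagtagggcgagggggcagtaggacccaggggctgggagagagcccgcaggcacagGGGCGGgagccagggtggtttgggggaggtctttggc
Col3a1 (chr1:45311338-45311537, plus strand): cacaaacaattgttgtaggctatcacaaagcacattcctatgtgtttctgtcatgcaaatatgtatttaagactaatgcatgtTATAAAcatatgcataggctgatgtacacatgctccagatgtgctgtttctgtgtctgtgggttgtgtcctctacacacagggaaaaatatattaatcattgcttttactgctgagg
Col1a2 (chr6:4505418-4505617, plus strand): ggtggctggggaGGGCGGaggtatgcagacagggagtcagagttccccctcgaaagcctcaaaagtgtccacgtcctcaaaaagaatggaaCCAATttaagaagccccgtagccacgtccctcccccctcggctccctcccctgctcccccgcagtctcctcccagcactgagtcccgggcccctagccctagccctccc
Col3a1 held TATAAA, 117 bases before the start. Col1a2 held CCAAT at 109 bases and GGGCGG at 188 bases before the start, and Serpinh1 held GGGCGG at 37 bases. Over the same 200 bases of the 32851 promoters in the table, TATAAA was present in 9.96%, CCAAT in 29.3%, GGGCGG in 31.0% and TGACTCA in 3.66%. The Sparc window held no match to these letters. Sparc and Serpinh1 shared none of these motifs, nor did Col3a1 and Col1a2, and a match is a description of letters, not a bound site.

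Whether matrix transcripts grew with tumour time was asked by day 17 against day 10 within each treatment. With vehicle, 7 of the 22 matrix members rose, 0 fell, and 0 of the 7 tested endothelial and epithelial members passed in either direction. Over all 17414 genes tested, 1.89% were higher and 3.63% lower. The median log2 change of the 22 matrix members was 2.95, against 0.13 over all genes tested, and at an unadjusted p under 0.05 there were 16 matrix members higher. The 7 were Fbn1 (3.22 ± 0.55, adjusted p = 0.00416), Col3a1 (5.59 ± 1.23, 0.016), Pdgfra (2.95 ± 0.73, 0.0275), Col1a2 (5.13 ± 1.27, 0.0278), Col5a2 (3.82 ± 1.00, 0.0349), Lum (4.54 ± 1.30, 0.0484) and Pdgfrb (2.94 ± 0.85, 0.04902), as log2 change with SE and edgeR adjusted p. In 5 of the 29 tested members, Col3a1, Fbn1, Fn1, Mmp2 and Epcam, all day 17 libraries were above all day 10 libraries with vehicle, against 4.78% of all genes, and in 0 members was the order reversed, against 8.77%. These counts rest on single libraries, and calls over all genes moved as well, from 329 of 17414 higher in the main fit. Without vehicle day 17 replicate 4, or without vehicle day 10 replicate 2 or 3, only Fbn1 passed. Over all genes 189, 83 and 47 were then higher. Omission of replicate 1 of vehicle at day 10 left 3 (Col3a1, Fbn1 and Pdgfra), and omission of replicate 2 of vehicle at day 17 left 4. Of all genes, 109 and 89 were then higher. Omission of replicate 4 of vehicle at day 10 gave 16 members, and 13 passed when replicate 1 of vehicle at day 17, or replicate 4 of entinostat at day 10, was left out. Over all genes 697, 1217 and 819 were higher in these fits. Without replicate 4 of both day 10 groups 20 of 29 members were higher, 19 of them matrix genes and the other Krt18, and without replicate 4 of all 4 groups 14 were, counts that follow in part from leaving out libraries high at day 10. The same omissions gave 1262 and 839 of all genes higher. In a fit of the vehicle libraries alone, and with the receptor level as a covariate, only Fbn1 passed. These fits called 122 of 13651 and 278 of 17414 genes higher. With that covariate the edgeR adjusted p was 0.0551 for Col3a1, 0.0728 for Pdgfrb, 0.0771 for Pdgfra, 0.0949 for Col1a2, 0.175 for Lum and 0.234 for Col5a2.

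Fbn1, fibrillin, the core of elastic microfibrils, was the member that rose in each of those fits. It was at 41.2, 30.96, 54.7 and 66.8 CPM with entinostat and 12.8, 61.9, 58.4 and 52.1 CPM with vehicle at day 17, and at 27.9, 23.4, 23.1 and 7.51 CPM with entinostat and 3.06, 2.59, 2.93 and 10.98 CPM with vehicle at day 10. With vehicle, every day 17 library was above every day 10 library, the nearest being 12.8 CPM at day 17 and 10.98 CPM at day 10. The change with the receptor covariate was 2.46 ± 0.35 on the log2 scale (edgeR adjusted p = 0.00328), against 3.22 ± 0.55 without it. Per kilobase of exon, the level of Fbn1 was 4.296 to 8.16 times the receptor density with vehicle at day 17 and 0.678 to 2.29 times with vehicle at day 10, and it was above the receptor percentile in 4 of 16 libraries.

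The platelet-derived growth factor receptors mark fibroblasts (Pdgfra) and pericytes (Pdgfrb). Pdgfra was at 28.3, 28.8, 21.6 and 45.1 CPM with entinostat and 0.451, 9.0, 12.9 and 20.6 CPM with vehicle at day 17. At day 10 Pdgfra was at 6.32, 6.44, 13.9 and 10.5 CPM with entinostat and 2.44, 0.778, 0.8795 and 1.31 CPM with vehicle. The entinostat libraries lay above the vehicle libraries at each day without overlap. Per kilobase of exon, Pdgfra was at 0.393 to 2.46 times the receptor density with vehicle at day 17 and 0.283 to 0.743 times with vehicle at day 10. It was above the receptor percentile in 3 of 16 libraries, 2 with entinostat at day 17, 1 with entinostat at day 10 and 0 with vehicle at either day. The part of silent-gene reads in its level was not tested. Pdgfrb was at 11.9, 13.2, 26.5 and 46.8 CPM with entinostat and 12.2, 28.3, 47.4 and 50.1 CPM with vehicle at day 17, and at 2.603, 1.54, 8.02 and 11.1 CPM with entinostat and 1.53, 0.518, 0.8795 and 14.6 CPM with vehicle at day 10, where the treatments overlapped at each day. Without vehicle day 17 replicate 4 the change of day 17 against day 10 with vehicle was 2.39 ± 0.73 for Pdgfra (edgeR adjusted p = 0.0715) and 2.69 ± 0.90 for Pdgfrb (0.09798). The same fit gave 2.00 ± 0.64 for Col3a1 (edgeR adjusted p = 0.0842) and 1.37 ± 0.76 for Col1a2 (0.301).

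With entinostat, no matrix member passed for day 17 against day 10. The edgeR test called 0 of 22 higher and 0 lower, with 6 higher at an unadjusted p under 0.05, while over all genes tested 3.26% were higher and 10.5% lower. On the same libraries DESeq2 called 3 members higher (Fn1, Pdgfra and Pdgfrb) and limma-voom 8. Over all genes they called 1107 and 1668 higher, against 568 by edgeR. The median log2 change of the 22 was 1.02, against 0.03 over all genes tested. In 7 of the 29 tested members, Col5a2, Col6a3, Fbn1, Fn1, Pdgfra, Pdgfrb and Acta2, all day 17 libraries were above all day 10 libraries with entinostat, against 8.94% of all genes. Without entinostat day 10 replicate 4, 7 members were higher (Col1a1, Col6a1, Fn1, Krt14, Serpinh1, Sparc and Timp1), and without replicate 4 of both day 10 groups 10 were, with the same limit. Over all genes 571 and 676 were higher in these fits. When entinostat replicate 2 or vehicle replicate 4 of day 17 was left out 1 member rose, and when vehicle replicate 1 of day 17 or vehicle replicate 4 of day 10 was left out 2 did. All genes higher then numbered 500, 626, 668 and 550, in that order. Whether the change over time differed between treatments is the same as asking whether the entinostat effect differed between days. For that difference edgeR called 0 of 29 members, as did DESeq2 and limma-voom, against 0.218% of all genes higher and 0.253% lower. At an unadjusted p under 0.05 edgeR had 8 members lower and 0 higher. The comparisons over time share no libraries between treatments, but each shares its libraries with the treatment comparisons below.

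Pecam1 was the member that fell over time with entinostat. It was at 79.7, 61.9, 68.02 and 73.6 CPM with entinostat and 129, 101, 128 and 102 CPM with vehicle at day 17, and at 107, 96.8, 101 and 131 CPM with entinostat and 119, 119, 152 and 153 CPM with vehicle at day 10. All entinostat libraries of day 17 lay below all those of day 10, as they did for 2 of the 29 members, Pecam1 and Epcam, and for 12.5% of all genes. The log2 change of day 17 against day 10 was -0.62 ± 0.14 with entinostat (SE, edgeR adjusted p = 0.00563) and -0.23 ± 0.13 with vehicle (0.266). The difference of the entinostat effect between days was -0.39 ± 0.19 for Pecam1 (edgeR adjusted p = 0.3998). The Pecam1 call with entinostat held in every alternative fit, library omissions included.

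**Figure D4:**
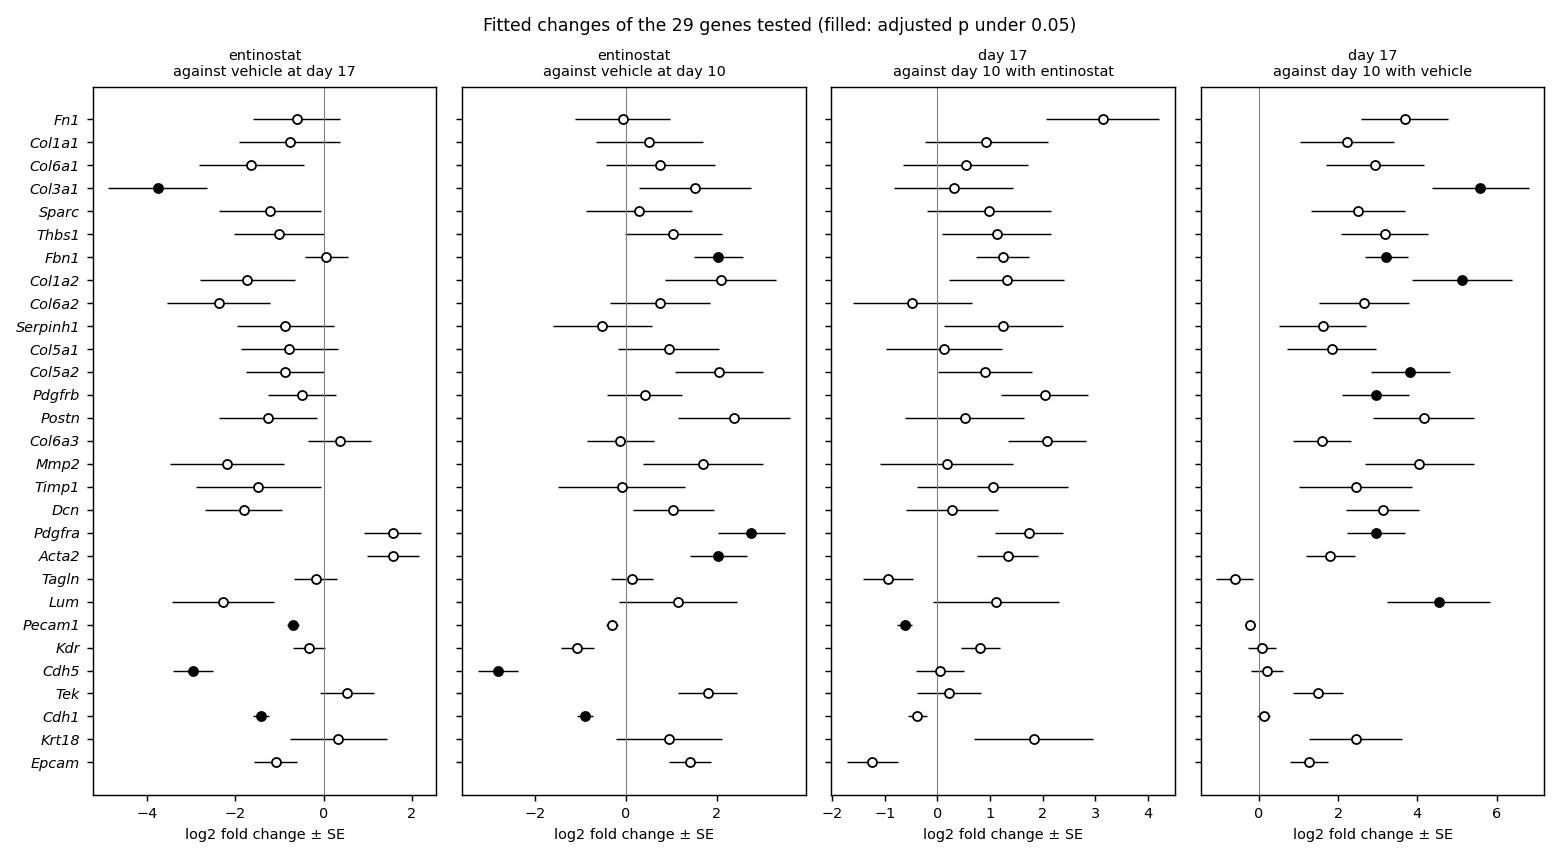
Fitted log2 fold change with SE of the 29 tested genes in the comparisons of treatment and of day, ordered within class by mean level, with filled points where the edgeR adjusted p is under 0.05. The matrix genes (upper 22 rows) are mostly right of 0 for day 17 against day 10 with vehicle, and Cdh5 and Cdh1 are filled and left of 0 at both days for entinostat against vehicle.

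The treatment comparisons asked how entinostat changed these transcripts at a given day. At day 17, 4 of 29 tested members fell with entinostat and 0 rose, against 13.0% of all genes lower and 5.29% higher. They were the junction genes Cdh5, Cdh1 and Pecam1 and the collagen gene Col3a1. At day 10, 2 fell (Cdh5 and Cdh1) and 3 rose (Pdgfra, Fbn1 and Acta2), against 6.93% of all genes lower and 7.63% higher. In 2 members at day 17 (Pdgfra and Acta2) and 5 at day 10 (Col5a2, Pdgfra, Acta2, Tek and Epcam) all entinostat libraries were above all vehicle libraries, against 10.8% and 7.81% of all genes. In 4 at day 17 (Pecam1, Cdh5, Epcam and Cdh1) and 2 at day 10 (Cdh5 and Cdh1) all were below, against 13.6% and 12.4% of all genes. Of the 22 matrix members, the median log2 change with entinostat was -0.94 at day 17, against -0.01 over all genes, and 0.99 at day 10, against 0.06 over all genes. Library size alone, without TMM, moved the median of all genes to 0.14 at day 17 and 0.22 at day 10, and the named calls kept their side of the threshold under it. By edgeR 0 members rose at day 17, with 2 at an unadjusted p under 0.05, while DESeq2 called Pdgfra and Acta2 higher and limma-voom 3. Over all genes edgeR called 922 higher, DESeq2 1745 and limma-voom 2119. Acta2 also rose in the fits without entinostat day 10 replicate 4 or without vehicle day 17 replicate 2, and Col6a3 and Pdgfra without vehicle day 17 replicate 4. Those omissions gave 1395, 1046 and 1158 of all genes higher.

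Cdh5, VE-cadherin, the cadherin of endothelial junctions, showed the largest called change of treatment apart from Col3a1. It was at 5.79, 4.04, 0 and 4.75 CPM with entinostat and 34.5, 32.03, 31.9 and 33.3 CPM with vehicle at day 17. At day 10 it was at 4.09, 2.57, 1.85 and 7.33 CPM with entinostat and 29.6, 20.7, 31.4 and 33.5 CPM with vehicle. The groups were far apart at each day, with no entinostat library above 7.33 CPM and no vehicle library below 20.7 CPM. The library at 0 is the shallowest, entinostat day 17 replicate 3, in which 3 counts would be 4.98 CPM. The log2 change with entinostat was -2.96 ± 0.46 at day 17 (SE, edgeR adjusted p = 0.000229) and -2.82 ± 0.44 at day 10 (0.00108), which is 7.79-fold and 7.06-fold lower. The difference between the days did not pass (log2 -0.14 ± 0.61, edgeR adjusted p = 0.945). With vehicle Cdh5 was above the receptor percentile in 8 of 8 libraries, and with entinostat in 1 of 8.

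Cdh1, E-cadherin, was at 68.2, 74.3, 91.2 and 102 CPM with entinostat and 237, 213, 274 and 155 CPM with vehicle at day 17. At day 10 it was at 112, 96.8, 115 and 109 CPM with entinostat and 176, 153, 249.2 and 233 CPM with vehicle. Entinostat libraries lay below vehicle libraries at each day without overlap. The log2 change was -1.41 ± 0.18 at day 17 (SE, edgeR adjusted p = 4.17e-05) and -0.91 ± 0.17 at day 10 (0.00393). Pecam1 fell with entinostat at day 17, with a log2 change of -0.70 ± 0.14 (edgeR adjusted p = 0.00187), and at day 10 the change was -0.31 ± 0.13 (0.109). Calls for Cdh5 and Cdh1 at both days and for Pecam1 at day 17 held in every alternative fit and every omission of a library.

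Kdr, the main receptor for vascular endothelial growth factor, did not pass. It was at 32.5, 35.8, 56.4 and 51.2 CPM with entinostat and 37.6, 60.9, 79.5 and 37.7 CPM with vehicle at day 17, and at 18.2, 19.6, 32.7 and 26.8 CPM with entinostat and 91.7, 22.3, 32.2 and 58.6 CPM with vehicle at day 10. The treatments overlapped at each day, with changes of -0.33 ± 0.37 at day 17 (SE, edgeR adjusted p = 0.563) and -1.07 ± 0.37 at day 10 (0.0574) on the log2 scale. Epcam, an epithelial adhesion molecule, averaged 5.66 ± 1.38 CPM with entinostat and 12.2 ± 2.88 CPM with vehicle at day 17, and 13.5 ± 4.15 CPM with entinostat and 5.09 ± 2.84 CPM with vehicle at day 10 (SD, n = 4 each). Its change was -1.09 ± 0.48 at day 17 (edgeR adjusted p = 0.122) and 1.41 ± 0.47 at day 10 (0.0517), in opposite directions without overlap at either day. At day 10 Epcam was called higher with DESeq2, limma-voom, RLE scaling, library size alone, the receptor covariate (1.47 ± 0.44, edgeR adjusted p = 0.0465) and without vehicle day 17 replicate 1. The difference between the days was -2.50 ± 0.67 on the log2 scale (edgeR adjusted p = 0.113, unadjusted p under 0.05).

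Markers of dendritic cells moved with Cdh5 and Cdh1. All 12 listed markers were detected in every library, and their summed CPM was 429.7 to 492 with entinostat and 1957 to 2490.2 with vehicle at day 17, and 377 to 673 with entinostat and 1004 to 2209.7 with vehicle at day 10. At each day 7 of the 12 fell with entinostat and 0 rose. Over all genes 13.0% fell and 5.29% rose at day 17, and 6.93% fell and 7.63% rose at day 10. Among the 7 were Ccr9 (-2.84 ± 0.18 at day 17, edgeR adjusted p = 9.25e-08), a chemokine receptor of plasmacytoid dendritic cells, and Pld4 (-2.81 ± 0.21, 2.26e-07), an endosomal nuclease. Among endothelial genes, Plvap of fenestrated vessels, which did not pass the filter, averaged 0.25 ± 0.323 CPM with entinostat and 2.52 ± 1.03 CPM with vehicle at day 17, and 0.324 ± 0.535 CPM with entinostat and 1.67 ± 0.968 CPM with vehicle at day 10. Cldn5 was near 0 in every group. Of the further endothelial genes, the 11 tested went the other way from Plvap or did not pass. With entinostat 1 rose at day 17 (Vwf), 3 rose at day 10 (Emcn, Cd93 and Egfl7), and 0 fell at either day. Cd4, which the gate excludes, also fell with entinostat, with a log2 change of -2.75 ± 0.33 at day 17 (edgeR adjusted p = 2.03e-05) and -1.66 ± 0.30 at day 10 (0.00297). The part of dendritic cells, endothelial cells or cells with Cd4 in the Cdh5 and Cdh1 differences was not tested.

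**Figure D5:**
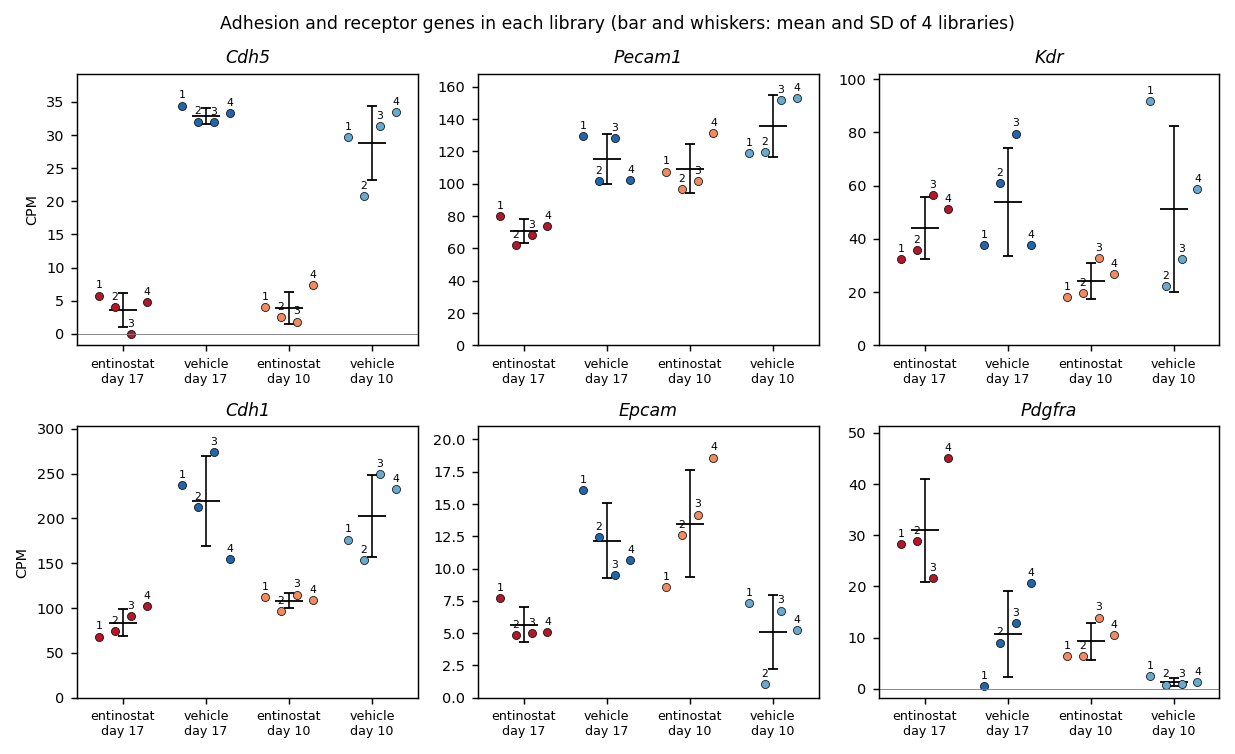
CPM per library of Cdh5, Pecam1, Kdr, Cdh1, Epcam and Pdgfra, with replicate numbers above the points and the group mean and SD as bar and whiskers. Entinostat libraries lie below vehicle libraries in Cdh5 and Cdh1 at both days, and above them in Pdgfra at both days.

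The 3 matrix members that rose with entinostat at day 10 were low in counts. At that day Pdgfra was above the receptor percentile in 1 of 4 entinostat and 0 of 4 vehicle libraries. Fbn1 was above it in 0 libraries of either group, and Acta2 in 2 with entinostat and 1 with vehicle. Pdgfra averaged 9.29 ± 3.63 CPM with entinostat and 1.35 ± 0.763 CPM with vehicle at day 10, a log2 change of 2.77 ± 0.73 (SE, edgeR adjusted p = 0.0209). Fbn1 changed by 2.03 ± 0.54 (0.0222) with overlap of the groups, and Acta2, smooth muscle actin, by 2.04 ± 0.62 (0.0381). Acta2 was at 23.2, 11.6, 13.3 and 19 CPM with entinostat and 2.56, 10.9, 1.54 and 7.89 CPM with vehicle at day 17, and at 8.18, 6.69, 9.25 and 2.86 CPM with entinostat and 2.44, 1.81, 0.586 and 1.57 CPM with vehicle at day 10. At day 10 the 4 entinostat libraries of Acta2 were above the 4 vehicle libraries, by as little as 2.86 against 2.44 CPM. A fit with the replicate number as a block within each day assumes that equal numbers pair libraries. By edgeR its adjusted p was 0.05003 for Pdgfra, 0.0619 for Fbn1 and 0.0945 for Acta2, and none passed. It called 418 of all genes higher. With the receptor level as a covariate Acta2 did not pass either (edgeR adjusted p = 0.117). Receptor reads in the same libraries were higher with entinostat in replicates 1 to 3, at 5546, 3317 and 4968 CPM, against 1895, 629 and 1789 CPM with vehicle, and lower in replicate 4, at 590 CPM with entinostat against 2016 CPM with vehicle. Without entinostat day 10 replicate 3, or vehicle day 10 replicate 2 or 3, none of the 3 passed. Without entinostat day 10 replicate 1 or vehicle day 10 replicate 1 only Pdgfra did. All genes higher numbered 376, 544, 441, 434 and 543 in these fits, in that order, against 1328 in the main fit. Acta2 was also lost without entinostat day 10 replicate 2, entinostat day 17 replicate 1 or 4, or vehicle day 10 replicate 4. In the last of these fits 7 members were higher with entinostat, Col1a1, Col5a1, Fbn1, Fn1, Pdgfra, Pdgfrb and Sparc. Without vehicle day 17 replicate 1 there were 5.

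Col3a1 at day 17 fell with entinostat by the edgeR test, at -3.76 ± 1.11 on the log2 scale (SE, adjusted p = 0.0258), and this rests on vehicle day 17 replicate 4. Without that library the change was -0.20 ± 0.63 (edgeR adjusted p = 0.833). The call was also lost without any single entinostat library of day 17, with limma-voom, in a fit of those groups alone and with either replicate block, and DESeq2 gave no adjusted p for it. With the receptor covariate it was kept, and Dcn (-2.03 ± 0.60, edgeR adjusted p = 0.0281) and Lum (-2.72 ± 0.82, 0.03198) were called lower too. Without that covariate neither passed (-1.81 ± 0.88 for Dcn, edgeR adjusted p = 0.158, and -2.28 ± 1.16 for Lum, 0.179), and without vehicle day 17 replicate 4 the changes were 0.57 ± 0.65 and 0.82 ± 0.99. For Fn1 the change with entinostat at day 17 was -0.61 ± 0.98 (edgeR adjusted p = 0.695) and for Col1a1 -0.77 ± 1.15 (0.673), so neither passed, with group means of 609 ± 511 and 152 ± 88.2 CPM with entinostat and 926 ± 579.5 and 259.9 ± 122 CPM with vehicle (SD, n = 4). Without replicate 4 of all 4 groups, 7 members were lower with entinostat at day 17, the junction genes Cdh1, Cdh5 and Pecam1 with Col1a1, Col6a1, Col6a2 and Thbs1. Over all genes 1978 were lower in that fit, against 2268 in the main fit.

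Tagln, a smooth muscle actin binder, was the matrix member with the narrowest range, 3.18 to 14.5 CPM over the 16 libraries, and it passed in no comparison. Its exons overlap those of Pcsk7 on the opposite strand, and the library kit does not mark strand, so its reads cannot be told apart from those of that gene. No other member overlapped an exon of another gene in the GENCODE basic annotation.

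Further genes of the same cell types, 47 of matrix, 20 of endothelium and 27 of epithelium, were read beside the members. For day 17 against day 10 with vehicle, 7 of 42 tested matrix genes rose and 0 fell, with a median log2 change of 1.97 against 0.13 over all genes, of which 1.89% rose. They include Gas1, a growth arrest gene of fibroblasts, at 21.98 ± 12.7 CPM at day 17 and 0.283 ± 0.251 CPM at day 10 with vehicle (SD, n = 4 each, log2 change 6.12 ± 1.43, edgeR adjusted p = 0.0218). Of the 47 further matrix genes, 8 were at least 5-fold above the rest of the group in vehicle day 17 replicate 4. In each replicate 4 library of day 10, 10 were. Fits without these libraries are not given for the further genes, so whether their calls rest on single libraries is not shown. With entinostat 2 of the 42 rose over time, Pdpn and Col4a1, against 3.26% of all genes. At day 17, 2 of the 42 rose with entinostat and 1 fell, and at day 10, 4 rose and 1 fell. Over all genes 5.29% rose and 13.0% fell at day 17, and 7.63% rose and 6.93% fell at day 10. Fbln5, an elastic fibre fibulin, rose at both days, by 1.76 ± 0.46 at day 17 (edgeR adjusted p = 0.0138) and 2.95 ± 0.51 at day 10 (0.00214) on the log2 scale.

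Of 11 further endothelial genes tested, 1 rose and 0 fell with entinostat at day 17 and 3 rose and 0 fell at day 10, to be read against the same shares of all genes. Vwf, von Willebrand factor, of endothelium and platelets, averaged 44.2 ± 14.5 CPM with entinostat and 7.41 ± 0.444 CPM with vehicle at day 17 (SD, n = 4 each, log2 change 2.56 ± 0.46, edgeR adjusted p = 0.0009001). The 3 at day 10 were Emcn, Cd93 and Egfl7. Of 18 further epithelial genes tested, 3 rose and 1 fell with entinostat at day 17 and 5 rose and 1 fell at day 10, to be read against those shares too. The one that fell at both days, as Cdh1 did, was Spint1, an inhibitor of membrane serine proteases (-1.62 ± 0.32 at day 17, edgeR adjusted p = 0.001898), while its target protease gene St14 rose (1.34 ± 0.30, 0.00488).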

How the data were processed

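SMART-seq v4 cDNA and Nextera XT libraries were read as raw counts per gene, which the authors deposited in 1 table of 24028 genes and 16 libraries. STAR and mm10 are named per the submitters' processing notes. The counter, its annotation, any duplicate removal and versions were not given in the sources used here. The members and gene lists were chosen with earlier results of these data known.

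Counts were tested with edgeR 4.0.16 in R 4.3.3 (TMM scaling, quasi-likelihood test, filterByExpr with a minimum count of 10, all 16 libraries in 1 fit with 12 residual degrees of freedom), which kept 17414 genes with a common biological coefficient of variation of 0.380. Calls are at a Benjamini-Hochberg adjusted p under 0.05 over all genes of a comparison, for 5 comparisons. Fold changes are those of the quasi-likelihood fit at its default prior count. A prior count of 2 enters only the log2 CPM behind the correlations of same-numbered libraries over all genes tested. The same steps were tested on simulated data. Alternatives used DESeq2 1.42.0, limma 3.58.1 (voom), RLE scaling, library size alone, other count filters, the compared groups alone, a receptor covariate, replicate blocks and omission of libraries, and 2 of them were chosen after seeing the data.

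Exon lengths and exon overlaps came from the GENCODE basic annotation of the mouse, and per-kilobase levels divide CPM by exon length. Depth ran from 554593 to 6975904 counts, so that a count of 3 corresponds to between 0.451 and 4.98 CPM. Libraries of a group all differed by more than sampling noise, with a chi-square of at least 3.28 per degree of freedom. Same-numbered entinostat and vehicle libraries of day 10 deviated together, with correlations of 0.243, 0.274, 0.219 and 0.260 over 9772 genes of at least 16 mean CPM, a gene set chosen after seeing the data. Over all genes tested the values were 0.180, 0.0329, 0.114 and 0.0572, so that 2 were not above 0.1. Over the 9772 genes, entinostat replicates 1, 2 and 4 correlated best with the vehicle library of their own number, and replicate 3 with vehicle replicate 1. Over all genes tested only replicate 1 correlated best with its own number. The labels state no pairing, so whether the numbers pair libraries at day 10 is not settled. Fits with and without a block are therefore given. In no other comparison were all 4 correlations above 0.1. Per-library values are given for members that passed in a comparison and for the 2 of highest mean CPM per class.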

Additional observations from a re-analysis of the deposited data

Results flagged for a closer look

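In 16 of 72 checks, 1 library lay further from the other 3 of its group than Dixon's 95% critical value for 4 samples allows. Chance alone flags about 1 in 20 such checks of normally distributed values, and the members share libraries, so the flags are not independent. The members checked include all that passed in a comparison, and some passed through a library that is flagged here. The number of flags therefore cannot be set against that rate. The flags fall on 3 libraries.

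In entinostat day 10 replicate 4 the flagged values were 288 CPM for Col1a1, 16.8 CPM for Col1a2, 27.2 CPM for Col3a1, 196 CPM for Fn1 and 21.98 CPM for Krt18, with 1044 CPM for the sum of the matrix members. In vehicle day 10 replicate 4 they were 212 CPM for Col1a1, 10.98 CPM for Fbn1, 268 CPM for Fn1, 14.6 CPM for Pdgfrb and 14.6 CPM for Krt18, with 866 CPM for the sum of the matrix members. In vehicle day 17 replicate 4 they were 278 CPM for Col1a2, 720 CPM for Col3a1, 139 CPM for Col5a2 and 76.8 CPM for Lum. Every flagged value was the highest of its group, and each was in a library numbered 4. What sets these libraries apart was not tested.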

How the results depend on the processing

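Cdh5 and Cdh1 at both days, Pecam1 at day 17 and over time with entinostat, and Fbn1 over time with vehicle kept their calls in every alternative that gave a value. Members higher with entinostat at day 10 numbered 3, against 5 with DESeq2, 7 with limma-voom, 0 with the replicate block within each day and 5 without replicate 4 of all 4 groups. All genes higher numbered 1328 of 17414 in the main fit, against 2297, 3576, 418 and 2254 in the same order. At day 17 the count was 0 higher, against 2 with DESeq2, 3 with limma-voom and 1 without replicate 4 of all 4 groups, and 4 lower, against 11 and 7 with limma-voom and without those libraries. Over all genes these were 922 higher, against 1745, 2119 and 958, and 2268 lower, against 2780 and 1978. Over time with vehicle 7 were higher, against 14 with limma-voom, 1 in a fit of those groups alone, 1 with the receptor covariate, 13 with the replicate block, 14 without replicate 4 of all 4 groups and 20 without replicate 4 of both day 10 groups. Over all genes 329 were higher, against 1316, 122, 278, 298, 839 and 1262 in the same order. Over time with entinostat the count was 0 higher, against 3 with DESeq2, 8 with limma-voom, 1 at a minimum count of 50, 5 in a fit of those groups alone, 2 with the replicate block, 8 without replicate 4 of all 4 groups and 10 without replicate 4 of both day 10 groups. Over all genes 568 were higher, against 1107, 1668, 907, 724, 495, 487 and 676 in the same order. Leaving out 1 library gave 0 to 7 higher and 2 to 4 lower at day 10, 0 to 2 higher and 3 to 4 lower at day 17, 1 to 16 higher and 0 lower over time with vehicle, 0 to 7 higher and 1 to 2 lower over time with entinostat, and 0 for the difference. Over all genes the same omissions gave 376 to 2637 higher and 534 to 1514 lower at day 10. At day 17 they gave 437 to 1395 higher and 1356 to 2263 lower. Over time they gave 47 to 1217 higher and 165 to 1482 lower with vehicle, and 336 to 668 and 1398 to 2161 with entinostat. The cause of these changes was not tested. Of 815 checks on single members 670 kept their side of the threshold, 47 gained a call, 93 lost one and 5 changed direction, all in uncalled changes with entinostat at day 17. Dcn was at 0.57 without vehicle day 17 replicate 4 and 0.40 without replicate 4 of all 4 groups, and Lum at 0.82 and 0.79 in the same fits and 0.56 with limma-voom, as log2 changes; leaving out single libraries put Dcn between -2.18 and 0.57 and Lum between -2.66 and 0.82, and the cause was not tested. Library size alone lost Lum and Pdgfrb over time with vehicle. The block within each day gives no value over time. Depth limits members with few counts, above all in entinostat day 17 replicate 3.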

Other observations

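Markers of other cells that a CD45 and CD8 gate could pass or carry were read beside the members, from lists named by cell type. Over all genes tested, 5.29% rose and 13.0% fell with entinostat at day 17, and 7.63% rose and 6.93% fell at day 10. The counts below are to be read against these shares. With entinostat at day 10, 4 of 6 tested neutrophil markers rose, among them the calprotectin genes S100a8 (6.22 ± 1.72 on the log2 scale with SE, edgeR adjusted p = 0.0258) and S100a9 (4.67 ± 1.06, 0.0108). The summed CPM of the list was 12.3, 49.7, 19.4 and 125 with entinostat and 5.5, 3.37, 2.35 and 19.6 with vehicle at day 10, highest in replicate 4 of each group, and 0 of 6 passed at day 17. Of 12 tested macrophage and monocyte markers, 3 fell and 1 rose with entinostat at day 17, and 2 fell and 1 rose at day 10. The lysosomal marker Cd68 and the lipopolysaccharide co-receptor Cd14 fell at both days, Cd68 with log2 changes of -2.57 ± 0.25 at day 17 (edgeR adjusted p = 2.00e-06) and -1.65 ± 0.23 at day 10 (0.000426). Of 5 tested B cell markers, 1 fell with entinostat at day 17, and 1 fell and 2 rose at day 10, the one that fell at both days being the B cell receptor gene Cd79b. Among 4 tested adipocyte markers 1 rose with entinostat at day 10, the lipase gene Lpl, and none of 3 milk, 2 platelet and 1 red cell markers passed in any comparison by edgeR. Of 9 T cell identity genes, 1 fell with entinostat at each day, Cd4, and 1 rose over time with entinostat, Cd8a. Over that time 3.26% of all genes rose.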
